A study of Mus musculus with 6 samples.

Results

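The enteroendocrine hormone and granule genes Gcg, Pyy, Cck, Insl5, Sst, Nts, Tph1, Chga, Chgb and Scgn were followed in the colon of STAT6-/- and wild-type (WT) mice. These 10 genes, of 19949 in the files, were taken by symbol as hormones, a serotonin enzyme and granule proteins of gut endocrine cells. The STAT6-/- mice were BALB/c, 6 to 8 weeks old, and carried a disrupted gene for STAT6, which passes signals of the type 2 cytokines to the nucleus; the labels do not name the allele. The WT mice had the same strain and age on their labels. Both genotypes had received 3% dextran sulfate sodium (DSS), which injures the colonic epithelium, for 3 days, so every value below comes from DSS-treated tissue. RNA came from washed pieces of colon whose inner surface had been scraped clear of mucus, and each genotype had 3 libraries with 17122315 to 19555450 expected counts (estimated read numbers). Whether a library is 1 animal or a pool is not stated, and the spread behind each p-value is therefore that of these samples, which may be technical.

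Enteroendocrine cells are scattered, hormone-secreting cells of the gut epithelium. They arise from progenitors that express Neurog3, sense nutrients and bacterial products, and store their hormones in dense-core granules with granins. In the colon, L cells make proglucagon (the source of glucagon-like peptide 1), peptide YY and, mostly in the mouse, insulin-like peptide 5; enterochromaffin cells make serotonin and D cells make somatostatin.

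Some of the measured hormones moved in opposite directions. Gcg rose in the STAT6-/- colons and Insl5 and Scgn fell. Cck was called higher too, but it entered the test through its STAT6-/- libraries alone and had to differ. The other 5 tested genes (Pyy, Sst, Tph1, Chga and Chgb) did not pass the test. Nts had too few counts to be tested. The test was edgeR's quasi-likelihood test over 15066 genes with Benjamini-Hochberg adjustment, it is the source of each adjusted p unless another is named, and 0.05 was the threshold. Levels are in CPM, each count divided by its library's total and TMM factor. The 2 members called higher, Cck included, and the 2 called lower stand beside 11.4% and 11.5% of all tested genes called higher and lower, 22.9% in either direction. The groups did not overlap for 4 of the 9 tested members, against 46.5% of all tested genes. In whole tissue, fewer endocrine cells and less RNA per cell cannot be told apart. The 9 tested members had a median log2 fold change of 0.64, against 0.01 for all tested genes and 0.81 for 10 general epithelial markers. This and the shares above are a description only. Cck is among the members, and these were chosen with earlier results of these data known.

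**Figure D1:**
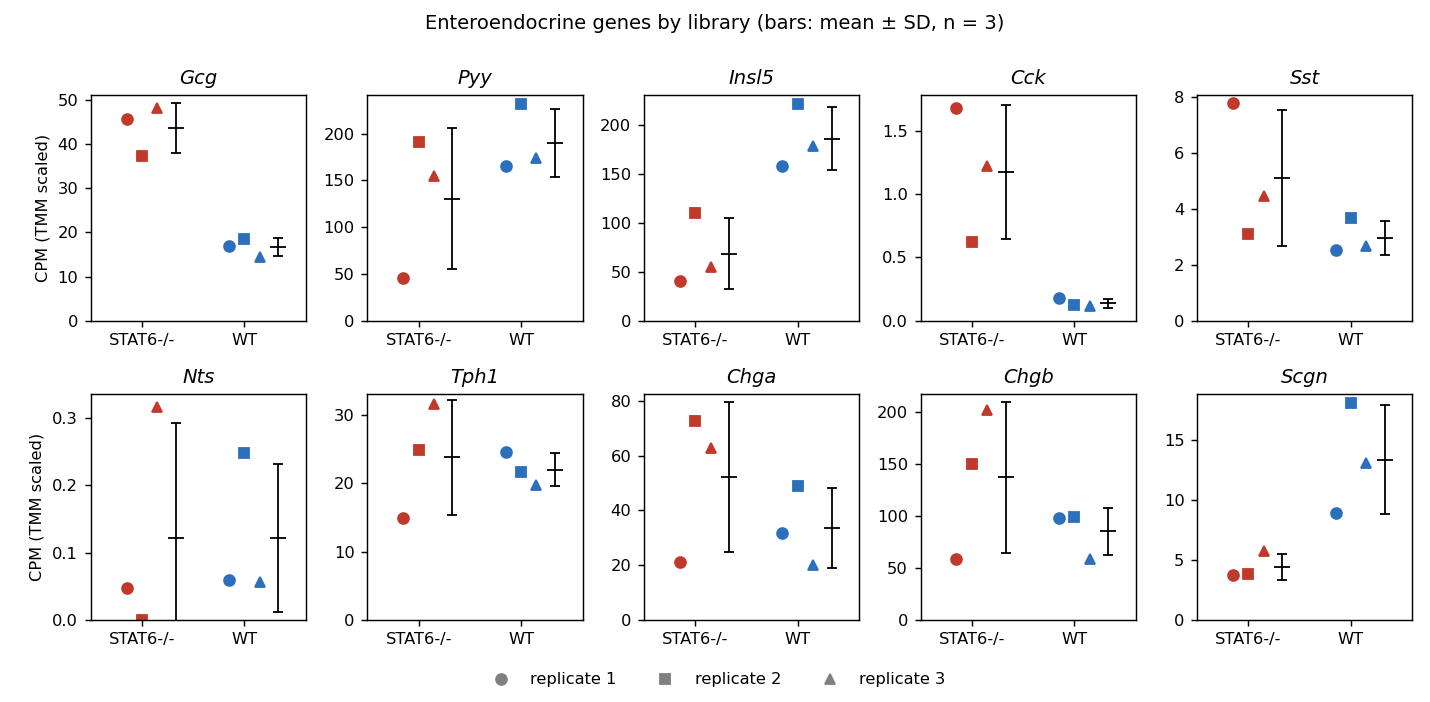
Level of each of the 10 genes in each library, in CPM after TMM scaling on linear axes that start at 0, with STAT6-/- libraries in red and WT libraries in blue; bars give the mean ± SD of 3 libraries and the symbol shape gives the replicate. The groups do not overlap for Gcg, Cck, Insl5 and Scgn, and STAT6-/- replicate 1 is the lowest STAT6-/- library for Pyy, Insl5, Tph1, Chga, Chgb and Scgn.

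The promoters of the 4 genes that passed are shown first, with those of Sst, Chga and Chgb, to let their sequence be compared (RefSeq, build GRCm38.p6, read 5′ to 3′ on the strand of the gene). All 10 members matched the promoter table, and the 250 bases before each annotated start were searched on both strands. Capitals mark the TATA box letters TATAAA, the core TGACG of a cAMP response element, the E-box CAGATG that NEUROD1 can bind, or a STAT-type palindrome TTCNNNGAA. A match on the other strand appears as its reverse complement. The wider palindrome that STAT6 prefers, TTC and GAA with 4 bases between them, was also searched. Gcg at chr2:62483654-62483773 (minus strand), Cck at chr9:121495695-121495814 (minus), Insl5 at chr4:103027272-103027391 (minus), Chga at chr12:102554821-102554940 (plus) and Chgb at chr2:132781522-132781641 (plus) show the last 120 bases before the start. For Scgn the stretch is chr13:23991345-23991464 (minus), the most distant 120 bases of the window, and for Sst it is chr16:23890874-23890903 (minus), 30 bases around its match. The start used for Scgn and Sst lies inside the annotated span of the gene, since another transcript model begins further upstream.
Gcg: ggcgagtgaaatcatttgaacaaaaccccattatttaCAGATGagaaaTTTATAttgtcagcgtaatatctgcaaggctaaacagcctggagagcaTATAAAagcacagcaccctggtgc
Cck: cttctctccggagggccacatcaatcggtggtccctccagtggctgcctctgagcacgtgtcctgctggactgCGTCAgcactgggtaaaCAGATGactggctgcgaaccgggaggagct
Insl5: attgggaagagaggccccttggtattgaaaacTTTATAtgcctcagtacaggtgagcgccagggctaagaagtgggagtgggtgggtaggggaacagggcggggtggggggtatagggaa
Scgn: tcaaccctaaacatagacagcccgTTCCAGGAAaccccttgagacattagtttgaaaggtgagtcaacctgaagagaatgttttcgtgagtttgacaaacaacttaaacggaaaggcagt
Chga: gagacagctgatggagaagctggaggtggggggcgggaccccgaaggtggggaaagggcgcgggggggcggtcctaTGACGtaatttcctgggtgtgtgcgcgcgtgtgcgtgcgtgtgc
Chgb: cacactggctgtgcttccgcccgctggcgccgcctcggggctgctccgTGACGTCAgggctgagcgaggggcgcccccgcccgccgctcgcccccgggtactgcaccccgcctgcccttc
Sst: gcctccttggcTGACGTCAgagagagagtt

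None of the 10 member windows held the wider palindrome, which 5.85% of the 32851 promoters in the table hold, and TTCNNNGAA stood in that of Scgn alone, against 7.02% of all promoters. The core TGACG stood in 6 of 10 windows (Cck, Sst, Nts, Tph1, Chga and Chgb), against 17.8% of all promoters. In Sst and Chgb it is part of the full palindrome TGACGTCA, held by 1.55% of all promoters, which was counted among the core matches too. CAGATG stood in the windows of Gcg and Cck (14.4% of all promoters), and TATAAA in those of Gcg and Insl5 (12.4%). The TATAAA match of Insl5 lay on the other strand at -88 to -83 from the start. Gcg had a match on its own strand at -24 to -19 and another on the other strand at -72 to -67. No motif searched was found in all of the 4 genes that passed. A match is a description of the letters and not a shown binding site.

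Stat6 itself was lower in the STAT6-/- colons, at 49.9, 38.5 and 53.2 CPM against 91.4, 104 and 88.7 CPM in WT. Its log2 fold change was -1.01 ± 0.16 (SE; adjusted p = 0.0134), and the adjusted p became 0.0725 with WT replicate 2 left out and 0.0721 with WT replicate 3 left out. The disrupted stretch cannot be read from counts summed over the gene. The Y-linked Ddx3y stood at 50.8 to 59.5 CPM in STAT6-/- libraries and at 0.0567 to 0.124 CPM in WT, and Xist, which coats the inactive X chromosome, at 0.264 to 0.991 CPM in STAT6-/- libraries and 352 to 545 CPM in WT. The Y-linked Eif2s3y, Uty and Kdm5d stood at 25.2 to 65.8 CPM in STAT6-/- libraries and at 0 in WT. The STAT6-/- libraries thus had male transcripts and the WT libraries female ones, and genotype and sex cannot be told apart in any comparison here. The labels speak of the proximal intestine, and regional genes were uneven among the STAT6-/- libraries. Hoxd13, a homeobox gene of the hindmost gut, stood at 4.48, 185 and 146 CPM in STAT6-/- replicates 1, 2 and 3, against 277, 236 and 206 CPM in WT. Hoxd10, Hoxd11 and Hoxd12 were likewise lowest in STAT6-/- replicate 1, and so was Hoxb13, the most abundant of the distal colon markers. Hoxa13 did not set that library apart, at 20.1, 25.6 and 24.4 CPM in STAT6-/- and 20.6, 23.1 and 14.7 CPM in WT. The 6 tested distal markers summed to 175, 729 and 504 CPM in STAT6-/- and 771, 798 and 556 CPM in WT, and edgeR called 0 of them, with 0 at an unadjusted p under 0.05 and 0 called by DESeq2. STAT6-/- replicates 1 and 3 were both low for the proximal colon gene Cyp2c55, at 5.17, 257 and 3.7 CPM in STAT6-/- and 188, 227 and 140 CPM in WT. Replicate 3 was the lowest for the chloride exchanger Slc26a3, at 737, 1607 and 254 CPM in STAT6-/- and 3176, 3371 and 2175 CPM in WT. Aldh1a1, of the 4 tested proximal colon markers, and Car1, of the 5 tested markers of the whole colon, fell, with log2 fold changes of -1.55 ± 0.20 and -3.40 ± 0.33. Of 10 small intestine markers 5 were tested. Rbp2 fell, to 11.8, 29.3 and 23.0 CPM in STAT6-/- against 74.2, 68.1 and 62.8 CPM in WT. Alpi, which entered the test mainly through its STAT6-/- libraries, was called higher at the threshold itself (adjusted p = 0.05 when rounded). Lyz1 was the most abundant of that list at 29.0 to 114 CPM, Fabp6 stood at 1.54, 11 and 66.8 CPM in STAT6-/- and 3.97 to 5.39 CPM in WT, and the disaccharidase genes Sis and Lct were at or below 0.53 CPM. The calls of Aldh1a1 and Rbp2 were lost without WT replicate 2 or 3, that of Car1 without WT replicate 3, and that of Alpi in 5 of the 6 fits with a library left out. The Alpi call was also lost with no filter on low counts, with limma on FPKM and with a replicate block. The part of the regional differences in the hormone results was not tested; member results that change without STAT6-/- replicate 1 are given with and without it.

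Among the L cell genes, Gcg rose. This gene encodes proglucagon, from which L cells cut glucagon-like peptides, and lies on chromosome 2 (62474530 to 62483653, mm10). It stood at 45.6, 37.4 and 48.2 CPM in the STAT6-/- colons, against 17, 18.5 and 14.5 CPM in WT. Every STAT6-/- library lay above every WT library, with means of 43.7 ± 5.66 and 16.7 ± 2.04 CPM (SD, n = 3 each). The log2 fold change was 1.39 ± 0.17 (SE), a 2.62-fold rise with an adjusted p of 0.00965. It ran from 1.29 to 1.52 with 1 library left out, and it missed the threshold when WT replicate 2 (adjusted p = 0.0613) or WT replicate 3 (adjusted p = 0.0675) was left out. Pancreas also makes proglucagon; the insulin genes Ins1 and Ins2 and the acinar genes Cpa1 and Amy2a5 carried no row and were taken as 0. The 4 other pancreas markers summed to 0.37 to 0.513 CPM in STAT6-/- libraries and 0.17 to 0.434 CPM in WT.

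Insl5 went the other way. Insulin-like peptide 5 is an appetite-linked hormone of colonic L cells in the mouse, and its gene lies on chromosome 4 (103017872 to 103027271). Its level was 40.9, 110 and 54.5 CPM in the STAT6-/- libraries, against 158, 221 and 178 CPM in WT, with no overlap. The log2 fold change was -1.44 ± 0.37 (SE, 2.72-fold lower, adjusted p = 0.0348). The call rested on single libraries: the log2 fold change was -1.14 (adjusted p = 0.0749) without STAT6-/- replicate 1 and -1.93 (adjusted p = 0.00356) without STAT6-/- replicate 2. Without STAT6-/- replicate 3 and WT replicates 1, 2 and 3 the adjusted p was 0.0863, 0.0683, 0.123 and 0.111.

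Pyy, the gene of the appetite-reducing peptide YY, lies on chromosome 11 (102106676 to 102107832) and did not pass. It had 45.7, 191 and 155 CPM in the STAT6-/- libraries, against 165, 232 and 174 CPM in WT. The groups overlapped, since STAT6-/- replicate 2 lay among the WT values while replicate 1 lay far below them. The log2 fold change was -0.55 ± 0.48 (SE, adjusted p = 0.421), and -0.10 without STAT6-/- replicate 1 (adjusted p = 0.762). Its relative and near neighbour Ppy (chromosome 11, 102099931 to 102101319), the gene of pancreatic polypeptide, was low in STAT6-/- replicates 1 and 3. Ppy stood at 5.41, 59.9 and 9.73 CPM in STAT6-/- and at 39.7, 63.2 and 37.4 CPM in WT (log2 fold change -0.91 ± 0.82, adjusted p = 0.439).

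Ratios between genes within a library do not depend on the scaling between libraries. The ratios given here were chosen after the values were seen, so they are a description only. An exact permutation test gave p = 0.1 for Gcg over Insl5. That is the smallest p possible with 3 against 3 libraries, so the test could not pass. The log2 ratio of Gcg to Insl5 counts was 0.16, -1.56 and -0.18 in the STAT6-/- libraries, against -3.22, -3.58 and -3.62 in WT. Its mean was 2.95 higher in STAT6-/-, as follows from the opposite directions of both genes. Gcg had as many counts as Pyy in STAT6-/- replicate 1 (978 and 980), and the log2 ratio of Gcg to Pyy was 0, -2.35 and -1.68 in STAT6-/-, against -3.27, -3.65 and -3.59 in WT (difference 2.16). Pyy and Insl5 were near equal in WT, with log2 ratios of 0.06, 0.07 and -0.03, whereas the STAT6-/- libraries had 0.16, 0.80 and 1.5 (difference 0.79). The ratio of Ppy to Pyy overlapped between the groups (difference -0.87).

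**Figure D2:**
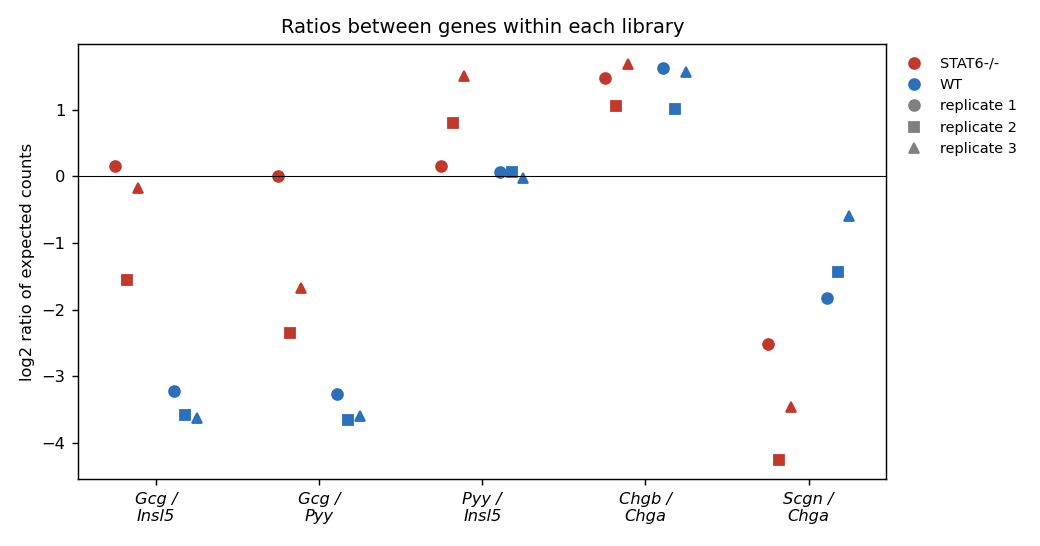
Log2 ratio of expected counts between gene pairs in each library, with STAT6-/- libraries in red and WT libraries in blue and the symbol shape giving the replicate. Gcg over Insl5 lies between -1.56 and 0.16 in STAT6-/- and between -3.62 and -3.22 in WT, while Chgb over Chga has the same mean of 1.40 in both groups.

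Cck, the gene of cholecystokinin, which makes the gallbladder contract and slows feeding, was scarce, and higher in the STAT6-/- libraries. I cells of the small intestine and neurons are its usual sources. It lies on chromosome 9 (121489824 to 121495694) and had 36, 12 and 23 counts in the STAT6-/- libraries, against 3, 2 and 2 counts in WT. These are 1.68, 0.626 and 1.22 CPM in STAT6-/- and 0.177, 0.124 and 0.113 CPM in WT, with no overlap. The summed counts of 71 and 7 gave an 8.64-fold higher level in STAT6-/- (exact 95% interval 3.98 to 22.3, counting error only). The fitted log2 fold change was 3.03 ± 0.56 (SE, adjusted p = 0.0166); its size depends on few WT counts, and the gene reached the test only because its STAT6-/- counts were high. It was also called when no filter on low counts was used. Leaving out WT replicate 2 gave an adjusted p of 0.0836 and leaving out WT replicate 3 gave 0.0862, and a filter of 1 CPM in 3 libraries removed the gene.

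Sst encodes somatostatin, the D cell hormone that inhibits other endocrine cells, and lies on chromosome 16 (23889573 to 23891342). It stood at 7.79, 3.08 and 4.44 CPM in STAT6-/- and 2.53, 3.66 and 2.66 CPM in WT. The groups overlapped, and STAT6-/- replicate 1 was the highest library (log2 fold change 0.79 ± 0.41, adjusted p = 0.19; 0.38 and 0.479 without that library). Nts, the gene of neurotensin (chromosome 10, 102481756 to 102490418), a hormone mainly of the ileum, had 1, 0 and 6 counts in STAT6-/- and 1, 4 and 1 in WT. At this depth a count of 0 in STAT6-/- replicate 2 allows up to 0.156 CPM, and no difference was detectable. Gip and Ghrl, hormones of the upper gut, were also near the floor, with at most 1 and 6 counts in a library.

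Enteric neurons also make Cck, Sst, Tac1, Penk and granule proteins, and the neuronal genes were uneven among the STAT6-/- libraries. Of 12 tested neuron markers, Ret, Nos1 and Gal rose, with a median log2 fold change of 0.84, while 11.4% of all tested genes were called higher. Nos1, the neuronal nitric oxide synthase, stood at 11.9, 2.92 and 20.9 CPM in STAT6-/- and 1.53, 1.74 and 2.66 CPM in WT (log2 fold change 2.58 ± 0.69, adjusted p = 0.038). Ret, a receptor of enteric neurons, stood at 10.8, 3.55 and 17.4 CPM in STAT6-/- against 3.24, 2.36 and 2.83 CPM in WT, and Gal, the galanin gene, had a log2 fold change of 1.69 ± 0.42. The most abundant marker, Vip, stood at 25.6 ± 15 CPM in STAT6-/- and 27.8 ± 14.3 CPM in WT (adjusted p = 0.883). The whole list of 14 summed to 105, 52.0 and 161 CPM in STAT6-/- and 61.5, 93.9 and 75.7 CPM in WT. STAT6-/- replicate 2 was the lowest STAT6-/- library for Cck, Sst, Penk and this sum, and also, by a smaller margin, for Gcg. Tac1, Chga and Chgb were instead lowest in STAT6-/- replicate 1. Tac1 stood at 13.1, 25.8 and 27.3 CPM in STAT6-/-, and Chga at 21.2, 72.6 and 62.6 CPM. The part of neurons in these values was not tested. All 3 neuronal calls were lost without STAT6-/- replicate 1, STAT6-/- replicate 3 or any WT replicate, and those of Ret and Nos1 also with limma on FPKM.

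The granule proteins Chga and Chgb did not pass. Chromogranin A, on chromosome 12 (102554941 to 102565027), stood at 21.2, 72.6 and 62.6 CPM in STAT6-/-, against 31.8, 48.9 and 20 CPM in WT. The level of Chgb, on chromosome 2 (132781642 to 132795079), was 58.9, 150 and 202 CPM in STAT6-/-, against 97.6, 98.6 and 58.7 CPM in WT. In both genes STAT6-/- replicate 1 lay within the WT range, near its lower end, and the other STAT6-/- libraries lay above it. Their log2 fold changes were 0.64 ± 0.49 and 0.69 ± 0.44 (adjusted p = 0.366 and 0.278), and without STAT6-/- replicate 1 they were 1.05 and 1.09 (adjusted p = 0.0923 and 0.0511). The log2 ratio of Chgb to Chga had a mean of 1.40 in both groups (difference 0.01). The expected counts of Chga were not whole, so RSEM shared some of its reads out with another transcript.

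Of 15065 other tested genes, the 5 with profiles over the 6 libraries most like that of Chga, members left out, were Scamp5, Cenpb, Vti1a, Brap and Abhd17c. Likeness was the root mean square difference between log2 CPM profiles scaled to mean 0 and SD 1. These 5 differed by 0.141 to 0.202, and Scamp5, the nearest, stood at 48.0, 73.3 and 71.0 CPM in STAT6-/- and 55.3, 60.3 and 45.7 CPM in WT. Chgb stood at 0.377, in place 50, Tph1 at 0.688, in place 431, and Pyy at 0.961, in place 1640. The remaining tested members differed more, from 1.10 for Gcg, in place 2886, to 1.54 for Scgn, in place 9687. The scaling hides how much a gene varies. Vti1a stood at 24.4 ± 2.24 CPM in STAT6-/- and 23.6 ± 1.22 CPM in WT. With 6 libraries and 15065 genes, close profiles can arise by chance, so these places are a description only.

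Scgn, the gene of secretagogin, a calcium-binding protein of endocrine cells that acts in hormone release, fell in the STAT6-/- colons. It lies on chromosome 13 (23953456 to 23991327) and stood at 3.73, 3.81 and 5.71 CPM in STAT6-/-, against 8.96, 18.1 and 13.1 CPM in WT. No STAT6-/- library reached the lowest WT library (log2 fold change -1.60 ± 0.34, 3.04-fold lower, adjusted p = 0.0216). Relative to Chga counts the log2 ratio of Scgn was -2.51, -4.25 and -3.46 in STAT6-/-, against -1.83, -1.43 and -0.60 in WT (difference -2.12). The call of Scgn was lost when STAT6-/- replicate 1 (log2 fold change -1.46, adjusted p = 0.0596), WT replicate 2 (0.0955) or WT replicate 3 (0.0897) was left out.

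**Figure D3:**
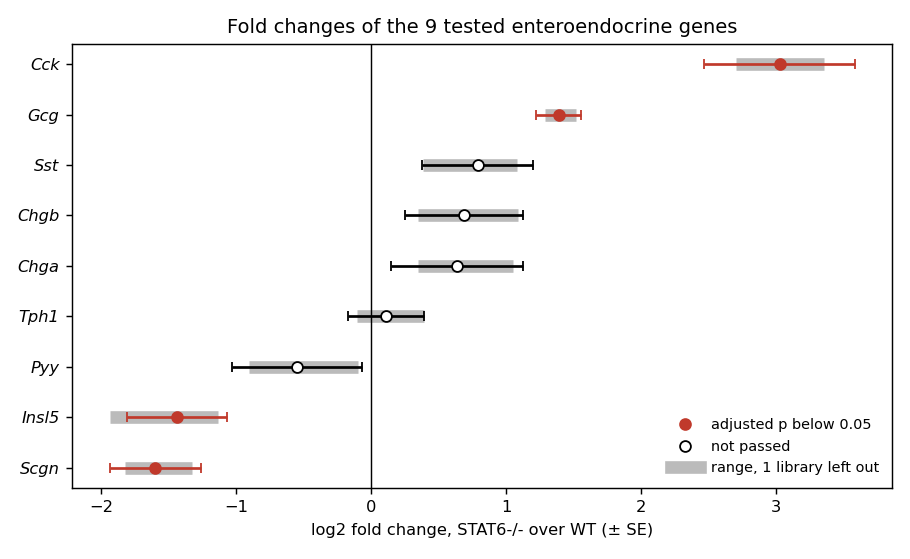
Log2 fold change of STAT6-/- over WT for the 9 tested genes, as points with SE bars, over grey bars that span the values with 1 library left out; red points have an adjusted p below 0.05. Gcg has the narrowest grey bar among the genes that passed (1.29 to 1.52), and that of Tph1 spans 0 (-0.11 to 0.39).

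Tph1, the enzyme that limits serotonin synthesis in enterochromaffin cells, showed no detectable difference. It lies on chromosome 7 (46644641 to 46672537) and stood at 14.9, 24.8 and 31.6 CPM in STAT6-/-, against 24.6, 21.7 and 19.7 CPM in WT (log2 fold change 0.11 ± 0.28, adjusted p = 0.796). The log2 fold change of Tph1 was 0.39 without STAT6-/- replicate 1 (adjusted p = 0.205), and its sign turned without STAT6-/- replicate 3 (-0.11). Around it, 1 of 7 tested genes of serotonin handling rose and 2 fell, against 11.4% and 11.5% of all tested genes. Gch1, which starts the synthesis of the cofactor tetrahydrobiopterin, rose to 58.3 ± 14.3 CPM in STAT6-/-, against 15.9 ± 3.0 in WT (log2 fold change 1.87 ± 0.23, adjusted p = 0.00965). Pts, the next enzyme of that cofactor pathway, fell to 22.3 ± 6.14 CPM in STAT6-/- against 39.0 ± 1.99 in WT (adjusted p = 0.0427), a call that was lost with library size scaling, with no filter on low counts, with limma on FPKM, without STAT6-/- replicate 1 and without any WT replicate. Maoa, the mitochondrial enzyme that degrades serotonin and the most abundant gene of the list, fell to 537 ± 137 CPM in STAT6-/-, against 1808 ± 258 in WT (log2 fold change -1.75 ± 0.26, adjusted p = 0.0116). Ddc, which turns 5-hydroxytryptophan into serotonin, stood at 16.3, 65.9 and 52.6 CPM in STAT6-/- and 75.6, 106 and 90.5 CPM in WT (adjusted p = 0.146). Its groups did not overlap, as in 46.5% of all tested genes. Slc6a4, the serotonin transporter, had a log2 fold change of 0.06 ± 0.35. The calls of Gch1 and Maoa were lost without WT replicate 2 or 3. Gch1 and Maoa act in many other cell types, and whole-tissue values do not show which cells carried the difference.

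The order of the members per length was led by the same genes in both groups. In FPKM, which is scaled to transcript length and to library size, Pyy stood at 269 ± 149 in STAT6-/- and 383 ± 54.5 in WT, and Insl5 at 101 ± 51.3 in STAT6-/- and 264 ± 34.8 in WT. Chgb followed with 49.8 ± 24.2 FPKM in STAT6-/- and 30.0 ± 7.06 in WT. Gcg came next in STAT6-/- at 40.7 ± 6.08 FPKM, ahead of Chga, while in WT it stood after Chga at 14.8 ± 1.09. In STAT6-/-, Sst (9.26 FPKM), Tph1 (6.31) and Scgn (3.16) came after these, and in WT Scgn (9.2), Tph1 (5.82) and Sst (5.0). Cck and Nts were last in both groups by mean. Neighbours in this order had ranges that overlapped in all of the 9 STAT6-/- pairs but that of Cck and Nts, and in WT the ranges parted Pyy from Insl5, Insl5 from Chgb, Gcg from Scgn and Sst from Cck. Of all member counts Gcg took 19.0%, 6.3% and 8.53% in the STAT6-/- libraries, against 3.37%, 2.79% and 3.01% in WT. The share of Insl5 was 17%, 18.5% and 9.65% in STAT6-/-, against 31.3%, 33.4% and 37.0% in WT. The 10 genes summed to 240, 594 and 565 CPM in STAT6-/- and 506, 663 and 480 CPM in WT, so that STAT6-/- replicate 1 was the low library and the others lay in the WT range.

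Of the transcription factors that make and mark enteroendocrine cells, Insm1 rose, Neurog3 was called higher and none of the 15 tested fell, with a median log2 fold change of 0.46. Among all tested genes 11.4% were called higher and 11.5% lower. Neurog3 entered the test through its STAT6-/- libraries alone and so had to differ, and its call was lost when no filter on low counts was used. Neurog3, which commits progenitors to the endocrine fate, had 30, 23 and 12 counts in STAT6-/- and 4, 1 and 6 counts in WT (log2 fold change 2.29 ± 0.61, adjusted p = 0.0382). Its groups did not overlap, as in 46.5% of all tested genes. Insm1, a zinc finger factor of endocrine differentiation, stood at 3.73, 4.38 and 6.77 CPM in STAT6-/- and 2.30, 1.80 and 1.59 CPM in WT (log2 fold change 1.38 ± 0.36, adjusted p = 0.0341). Neurod1, which acts after Neurog3, stood at 1.26, 4.12 and 4.81 CPM in STAT6-/- and 2.48, 3.04 and 1.53 CPM in WT (adjusted p = 0.492). The D cell factor Hhex and the most abundant factor of the list, Foxa1, had log2 fold changes of 1.40 ± 0.51 and 0.62 ± 0.22 (adjusted p = 0.0879 and 0.0793). Isl1, a factor of several hormone lineages, followed another pattern, with 1.91, 4.02 and 9.73 CPM in STAT6-/- and 8.96, 7.13 and 8.10 CPM in WT. The call of Neurog3 was lost without STAT6-/- replicate 1 and without any WT replicate, and that of Insm1 without STAT6-/- replicate 3 and without any WT replicate.

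**Figure D4:**
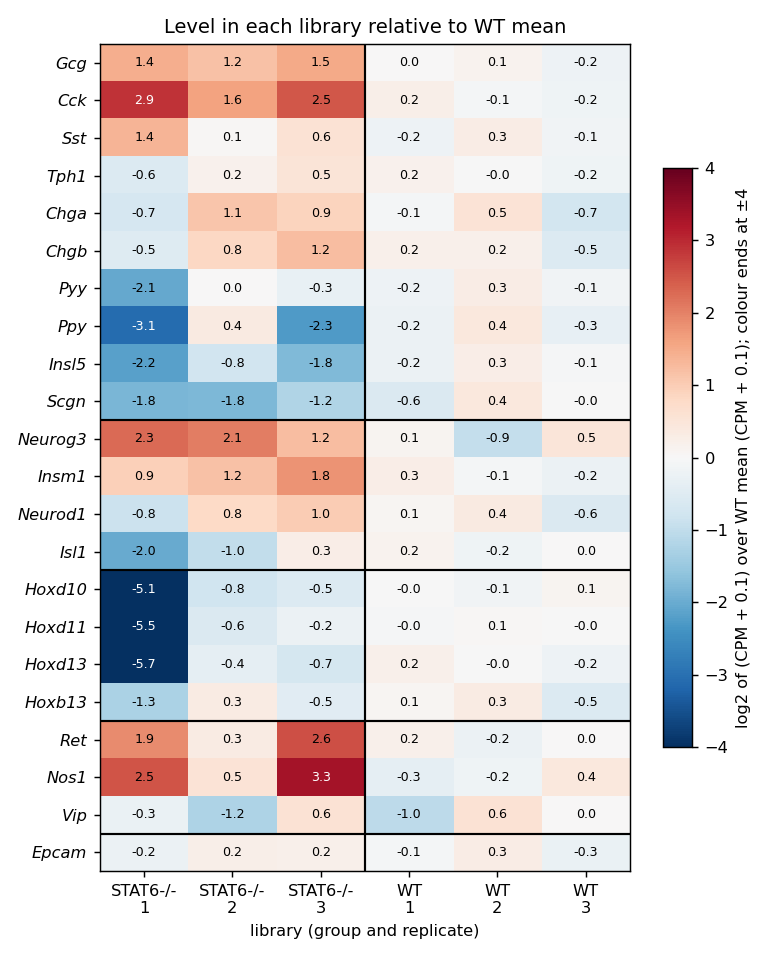
Level of members, endocrine transcription factors, regional Hox genes, neuronal genes and Epcam in each library, as log2 of CPM plus 0.1 over the WT mean plus 0.1 (numbers in the cells; colour ends at ±4). STAT6-/- replicate 1 has the lowest Hoxd13, at 4.48 CPM, and also the lowest Pyy, at 45.7 CPM; rows outside the members were chosen after values were seen.

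In the list of granule cargo and release machinery, 3 of 21 tested genes were called higher (Vgf, Ptprn and Ptprn2) and 2 fell (Resp18 and Cpe), with a median log2 fold change of 0.13. Over all tested genes 11.4% were called higher and 11.5% lower, 22.9% in either direction. Vgf, a granin-like protein of neurons and endocrine cells, had 41, 26 and 83 counts in STAT6-/- and 6, 11 and 4 counts in WT (log2 fold change 2.59 ± 0.63, adjusted p = 0.03). Vgf entered the test mainly through its STAT6-/- libraries, which favoured a difference. Of its WT libraries only replicate 2, at 11 counts, cleared the filter on low counts. Vgf was also called with no such filter. Ptprn and Ptprn2, membrane proteins of dense-core granules, had log2 fold changes of 1.5 ± 0.34 and 0.76 ± 0.20 (adjusted p = 0.0261 and 0.0352). Resp18, a protein of neuroendocrine granules, fell to 3.50, 5.27 and 4.44 CPM in STAT6-/-, against 12.3, 17.1 and 15 CPM in WT (log2 fold change -1.75 ± 0.26, adjusted p = 0.0115). Cpe, the carboxypeptidase that trims prohormones, fell by less (log2 fold change -0.55 ± 0.15, adjusted p = 0.0443). The convertase Pcsk1, which cuts proglucagon in L cells, had a log2 fold change of 0.13 ± 0.28, and Pam, the amidating enzyme and most abundant member, -0.19 ± 0.23 (adjusted p = 0.559). The vesicular monoamine transporters Slc18a1 and Slc18a2 had log2 fold changes of 0.02 ± 0.38 and -0.04 ± 0.37. Leaving out any 1 WT replicate ended the calls of Vgf, Ptprn, Ptprn2 and Cpe, leaving out STAT6-/- replicate 1 ended those of Vgf and Cpe, and leaving out STAT6-/- replicate 2 or using no filter ended that of Cpe. The call of Resp18 was lost without WT replicate 2 or 3.

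Other gut hormones gave no call among 5 tested, with a median log2 fold change of -0.43 (edgeR, 0 at an unadjusted p under 0.05, and 0 called by DESeq2). They were Sct, Ppy, Tac1, Penk and Nmu. Sct, the secretin gene, stood at 3.26, 4.49 and 2.85 CPM in STAT6-/- and 4.24, 7.01 and 2.95 CPM in WT (adjusted p = 0.454). Tac1, which encodes substance P and is made by enterochromaffin cells and neurons, stood at 22.1 ± 7.83 CPM in STAT6-/- and 29.7 ± 2.46 in WT (adjusted p = 0.29).

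Among nutrient sensors, 2 of 10 tested rose and none fell (median log2 fold change 0.48), against 11.4% and 11.5% of all tested genes. Ffar2, a receptor for short-chain fatty acids that L cells and leukocytes use, stood at 32.1, 56.7 and 14.0 CPM in STAT6-/- and 8.66, 12.4 and 5.21 CPM in WT (log2 fold change 1.97 ± 0.54, adjusted p = 0.0416). Slc5a1, the sodium-glucose transporter of endocrine and absorptive cells and the most abundant of the list, rose to 172 ± 21.2 CPM in STAT6-/-, against 110 ± 12.2 in WT (adjusted p = 0.0339). Abcc8, a subunit of the ATP-sensitive potassium channel, and Gfra3, a co-receptor found in enterochromaffin cells, did not pass (adjusted p = 0.0825 and 0.0831). Neither overlapped between groups, which held for 46.5% of all tested genes. Both calls of this list were lost without STAT6-/- replicate 1 and without any WT replicate, and that of Ffar2 also without STAT6-/- replicate 2 and with limma on FPKM plus 1.

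On the receiving side, 1 of 12 tested genes fell and none rose among hormone receptors and peptidases (median log2 fold change -0.35). Over all tested genes 11.5% were called lower and 11.4% higher. Dpp4, the surface peptidase that inactivates glucagon-like peptide 1, fell to 43.3, 27.9 and 28.8 CPM in STAT6-/-, against 57.1, 75.5 and 88.0 CPM in WT (log2 fold change -1.14 ± 0.24, adjusted p = 0.0211). Npy1r, a receptor for peptide YY, stood at 3.03, 9.08 and 5.13 CPM in STAT6-/- and 8.31, 14.4 and 19.4 CPM in WT (adjusted p = 0.0882). Glp2r, the receptor of glucagon-like peptide 2, stood at 6.12 ± 3.56 CPM in STAT6-/- and 10.9 ± 1.15 CPM in WT (adjusted p = 0.177), while Glp1r and the Insl5 receptor gene Rxfp4 had at most 2 and 6 counts in a library. Sort1, which binds neurotensin among other cargo and was the most abundant gene here, had a log2 fold change of 0.32 ± 0.30. The call of Dpp4 was lost without WT replicate 2 or 3.

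**Figure D5:**
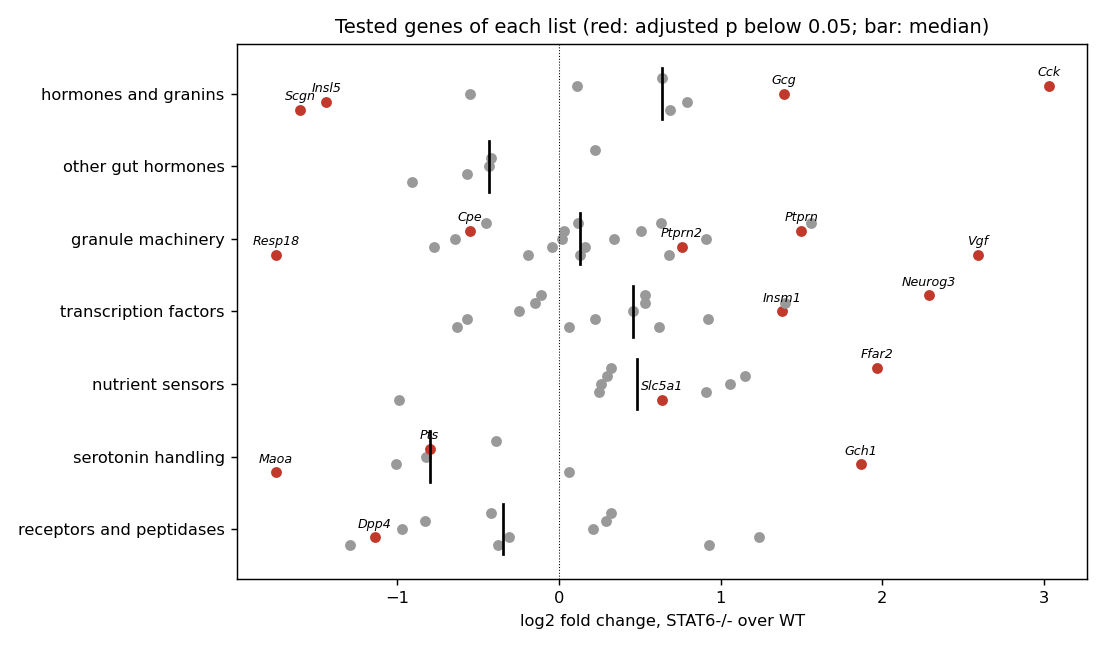
Log2 fold change of STAT6-/- over WT for every tested gene of the hormone and granin genes and the 6 related lists; red named points have an adjusted p below 0.05, grey points do not, and vertical bars are list medians. Only the hormones and granins, granule machinery and serotonin lists among those drawn hold calls in both directions.

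The epithelium and the gut wall also differed between the groups. Of 10 epithelial markers Vil1 and Krt20 rose (log2 fold change 1.19 ± 0.24 and 1.48 ± 0.34, adjusted p = 0.02 and 0.026), while Epcam had a log2 fold change of 0.07 ± 0.25. The median of these markers was 0.81, and 11.4% of all tested genes were called higher. Lgals4, a lectin of the same list, went the other way without passing, at 3675 ± 1126 CPM in STAT6-/- and 6928 ± 789 CPM in WT (log2 fold change -0.92 ± 0.31, adjusted p = 0.0692). Krt8, the most abundant, stood at 7200 ± 2102 CPM in STAT6-/- and 4059 ± 674 CPM in WT (adjusted p = 0.0861). The list summed to 16661 to 27384 CPM in STAT6-/- and 15767 to 20625 CPM in WT. Leaving out any 1 WT replicate ended the calls of Vil1 and Krt20, and leaving out STAT6-/- replicate 1 that of Krt20. Of 6 smooth muscle markers Tagln, Cnn1, Myh11, Acta2 and Des fell, and the list summed to 2274 to 5147 CPM in STAT6-/- against 8687 to 10722 CPM in WT. The median log2 fold change of the 6 was -1.25, and 11.5% of all tested genes were called lower. Tagln, the most abundant, fell to 835 ± 324 CPM in STAT6-/-, against 3047 ± 228 CPM in WT (adjusted p = 0.0151). These 5 calls became 1 without STAT6-/- replicate 1, 2 without STAT6-/- replicate 2, 1 without WT replicate 1 and 0 without WT replicate 2 or WT replicate 3. The part of these differences in the hormone results was not tested.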

How the data were processed

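RNA-seq of 6 colon samples was analysed. Each library has a table of expected counts deposited by the authors, unscaled read numbers estimated for RefSeq transcripts, per the file headers. Its FPKM column was deposited by the authors too, per the file headers. The submitters' processing notes name Bowtie2 2.2.5, RSEM 1.2.12 and build mm10. Transcripts with an FPKM below 0.01 are not listed and were taken as 0.

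Gene names came from RefSeq (GRCm38.p6) for 27986 of 28238 transcripts and GENCODE M21 for 149; the 103 others, with 0.167% of the counts, stayed as separate entries. Counts were summed per gene and rounded. Genotypes were compared with edgeR 4.0.16 in R 4.3.3 (TMM, filterByExpr, robust quasi-likelihood, no block; common dispersion 0.102), a script tested on simulated data. SE is the log2 fold change over the root of F. Alternatives were other scalings and filters, DESeq2 1.42.0, limma 3.58.1 on log2 of FPKM plus 1 or plus 0.1, a replicate block, and leaving out each library. Figures used matplotlib 3.10.9.

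Members and gene lists were chosen with earlier results of these data known. In the other lists every called gene was named where 5 or fewer passed, otherwise the 4 of smallest p, plus the gene of highest mean level; any further gene was chosen after its values were seen.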

Additional observations from a re-analysis of the deposited data

How the results depend on the processing

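Of 125 alternative values for the 9 tested members, 112 kept direction and side of the threshold, 12 lost a call and 1 changed sign; all 13 came from leaving out a library. Scaling, filters, DESeq2 and limma on FPKM changed no call of a member that they fitted; the filter of 1 CPM in 3 libraries dropped Cck and left 1 member higher. DESeq2 called 2713 genes higher. With each library left out in turn, 12 to 2750 genes were higher and 6 to 2440 lower, and 0 to 2 members were called in each direction. Without WT replicate 2, 21 genes were higher and 10 lower, and without WT replicate 3, 12 and 6; edgeR then called 0 members, with 4 at an unadjusted p under 0.05 in both cases. The counts were 656 and 751 when WT replicate 1 was left out, 1035 and 751 for STAT6-/- replicate 1, and 2750 and 2440 for STAT6-/- replicate 2. The cause was not tested. Log2 fold changes then ran from 1.29 to 1.52 for Gcg, 2.71 to 3.36 for Cck, -1.93 to -1.14 for Insl5, -1.83 to -1.33 for Scgn and -1.06 to -0.85 for Stat6. That of Tph1 was -0.11 without STAT6-/- replicate 3 and ran up to 0.39. Of 29 other listed genes called, sex-linked genes left out, 13, 24 and 23 kept their call without STAT6-/- replicates 1, 2 and 3, and 9, 1 and 0 without WT replicates 1, 2 and 3; all 29 kept their direction, an alternative added after the data were seen. The replicate block gave 1219 higher and 1445 lower genes and changed no member's call, and 16 of those 29 genes stayed called. Same-numbered samples deviated from their group means with correlations of 0.03, 0.047 and 0.148, so the numbers were not taken to pair them. Endocrine transcription factors had 4 higher genes by DESeq2 and 0 with the block, against 2. Hormone receptors and peptidases had 2 lower genes with either, against 1. Granule machinery had 1 gene called in each direction with the block, against 3 higher and 2 lower, and sensors 1 higher, against 2. By DESeq2, 7 epithelial markers were higher and 1 lower, against 2 and 0, and 6 neuronal markers were higher, against 3. Epithelial markers had 4 higher genes with library size scaling and with limma, and neuronal markers 1 with limma. Smooth muscle markers had 3 lower genes with the block, against 5. Scarce genes such as Cck, Nts and Neurog3 are limited by depth, and count intervals cover counting error only.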

Other observations

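Markers of the lineage that also yields goblet and tuft cells were read beside the endocrine genes. Of 10 tested genes of secretory lineage and Notch signalling edgeR called 0, with 4 at an unadjusted p under 0.05, and DESeq2 called 4 higher; their median log2 fold change was 0.74. Muc2, the gel-forming mucin of goblet cells, stood at 3282, 3938 and 1959 CPM in STAT6-/- and 1811, 1701 and 1698 CPM in WT (log2 fold change 0.82 ± 0.29, edgeR adjusted p = 0.0835). Its groups did not overlap, as in 46.5% of all tested genes. Spdef, the goblet cell maturation factor, stood at 40.5 ± 9.46 CPM in STAT6-/- and 23.9 ± 5.5 in WT (edgeR adjusted p = 0.0598). Atoh1, which opens the secretory fate, was uneven at 31.4, 59.9 and 16.9 CPM in STAT6-/- and 22.2, 21.3 and 18.1 CPM in WT. Of 5 tested tuft cell markers edgeR called 0, with 0 at an unadjusted p under 0.05 and 0 called by DESeq2, and Dclk1 stood at 11.7 ± 3.35 CPM in STAT6-/- and 13.9 ± 2.81 in WT. Ptgs1, the most abundant of them, stood at 22.2 ± 7.09 CPM in STAT6-/- and 25.3 ± 1.06 in WT.

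Enteric glia markers went both ways, with Gfap higher and S100b lower among 5 tested, against 11.4% and 11.5% of all tested genes. Gfap stood at 9.37, 2.61 and 18.9 CPM in STAT6-/- and 1.95, 2.29 and 1.02 CPM in WT (log2 fold change 2.55 ± 0.72, edgeR adjusted p = 0.0445), and S100b at 0.801 ± 0.158 CPM in STAT6-/- and 2.65 ± 0.581 in WT (edgeR adjusted p = 0.0213). The call of Gfap was lost with limma on FPKM, without STAT6-/- replicate 1 or 3 and without any WT replicate, and that of S100b without WT replicate 2 or 3; both were lost with the replicate block. Ednrb, the most abundant of the list, stood at 17.3, 5.64 and 38.6 CPM in STAT6-/- and 9.43, 16.1 and 18.5 CPM in WT. Of 7 mast cell markers edgeR called 0, with 1 at an unadjusted p under 0.05, and DESeq2 called 1 higher and 1 lower. Kit, the most abundant, stood at 26.6 ± 6.5 CPM in STAT6-/- and 21.8 ± 2.69 in WT. The mast cell protease gene Mcpt1 stood at 47.9 CPM in STAT6-/- replicate 1, against 5.79 and 6.61 CPM in the other STAT6-/- libraries and 4.71 to 5.67 CPM in WT. Tpsb2, the gene with the unadjusted p under 0.05, went the other way (log2 fold change -1.90 ± 0.72, edgeR adjusted p = 0.0945). It stood at 0.233, 0.991 and 0.687 CPM in STAT6-/- and 0.884, 2.05 and 4.19 CPM in WT.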
